A study of Mus musculus with 23 samples.

Results

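A set of 10 genes of blood vessels and of the VEGF and angiopoietin pathways was followed through whole tumors and sorted fibroblasts of syngeneic mouse models. These are Pecam1, Cdh5, Plvap, Kdr, Flt1, Tek, Tie1, Angpt2, Vegfa and Vegfc, chosen by name, and the 10 are part of 24940 gene symbols. All 10 were found in both the tumor table and the CAF table and passed the filters on low values there. The tumors had been grown under the skin of adult female C57BL/6 mice from injected B16-F10 melanoma, EO771.LMB breast, LL/2 lung, MC38 colon or Pan02 pancreatic cancer cells, and 3 tumors of each model, called B16, EO771, LL2, MC38 and Pan02 here, gave RNA from a fragment of the whole tumor. Cancer-associated fibroblasts (CAFs) were cells positive for fibroblast activation protein (FAP), sorted from the living cells of tumors that had been depleted of CD45+ leukocytes, with 2 libraries each from EO771, LL2, MC38 and Pan02 tumors and none from B16. No mouse carried a transgene or received a drug, each model is 1 cancer cell line, and the sort as described used no endothelial marker to remove vessel cells. No source used here says that the 3 tumors of a model came from 3 mice, so p-values measure the spread between these samples.

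The endothelium lines the blood vessels that feed a tumor. VEGF-A, secreted by cancer cells, leukocytes and fibroblasts, acts on endothelial cells through KDR (VEGFR2), the main signalling receptor, whereas FLT1 (VEGFR1) binds VEGF-A tightly but signals weakly and in part acts as a decoy. VEGF-C acts mainly on lymphatic vessels through FLT4. TEK (Tie2) is the receptor of the angiopoietins, TIE1 is its partner receptor without a firmly established ligand of its own, and ANGPT2 is an angiopoietin that endothelial cells release when vessels are remodelled. PECAM1 (CD31) and CDH5 (VE-cadherin) hold endothelial cells together, and PLVAP forms the diaphragms of fenestrated and transporting vessels. Leukocytes and platelets also carry PECAM1, and some macrophages carry TEK and FLT1, so these genes are not all restricted to endothelium.

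The promoters of the receptors are shown first, because the receptors Kdr, Flt1, Tek and Tie1 are described in turn below, and with them the first of 2 promoters of Vegfa. The RefSeq table of promoters (build GRCm38.p6) held 6 of the 10 genes, not Pecam1, Cdh5, Angpt2 or Plvap. Each line gives the 250 bases before a transcription start, 5′ to 3′ on the gene's strand, with capitals at GGAA or its reverse complement TTCC, the core recognised by ETS factors, which drive many endothelial genes.
Kdr: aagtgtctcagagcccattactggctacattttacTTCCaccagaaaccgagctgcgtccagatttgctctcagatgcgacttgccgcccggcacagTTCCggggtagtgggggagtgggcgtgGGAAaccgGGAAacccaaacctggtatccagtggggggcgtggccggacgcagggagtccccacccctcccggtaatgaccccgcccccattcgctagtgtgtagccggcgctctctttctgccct
Flt1: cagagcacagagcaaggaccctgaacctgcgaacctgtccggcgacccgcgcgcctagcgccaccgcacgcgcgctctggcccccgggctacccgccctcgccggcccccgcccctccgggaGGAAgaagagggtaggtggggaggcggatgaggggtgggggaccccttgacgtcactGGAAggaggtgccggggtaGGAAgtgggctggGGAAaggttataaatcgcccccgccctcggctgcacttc
Tek: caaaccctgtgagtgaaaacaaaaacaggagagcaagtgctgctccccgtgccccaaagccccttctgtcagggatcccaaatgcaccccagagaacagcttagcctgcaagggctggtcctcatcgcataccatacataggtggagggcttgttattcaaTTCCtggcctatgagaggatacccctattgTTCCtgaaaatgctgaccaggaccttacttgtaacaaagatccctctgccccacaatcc
Tie1: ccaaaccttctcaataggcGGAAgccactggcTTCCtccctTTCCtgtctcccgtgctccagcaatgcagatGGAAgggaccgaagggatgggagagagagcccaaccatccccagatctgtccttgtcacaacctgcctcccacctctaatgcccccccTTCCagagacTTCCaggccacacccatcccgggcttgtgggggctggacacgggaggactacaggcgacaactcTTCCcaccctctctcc
Vegfa: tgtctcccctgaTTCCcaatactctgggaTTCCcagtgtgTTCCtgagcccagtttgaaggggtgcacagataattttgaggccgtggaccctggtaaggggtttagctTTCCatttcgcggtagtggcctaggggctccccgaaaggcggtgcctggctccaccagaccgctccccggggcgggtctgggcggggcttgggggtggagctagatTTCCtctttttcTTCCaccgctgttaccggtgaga
The windows lie at chr5:75978456-75978705 (Kdr, minus strand), chr5:147726012-147726261 (Flt1, minus strand), chr4:94739039-94739288 (Tek, plus strand), chr4:118489850-118490099 (Tie1, minus strand) and chr17:46032378-46032627 (Vegfa, minus strand). GGAA or TTCC occurred 4 times for Kdr, 4 times for Flt1, 2 times for Tek, 7 times for Tie1 and 6 times for Vegfa. That 4-letter core is common, present in 93.4% of 32851 mouse promoter windows of this length with a median of 3 per window, so its presence marks nothing particular. TATAAA, counted on both strands like the others, occurred once for Flt1 and in none of the other 4 printed windows, against 12.4% of all windows. ACGTG, the core bound by hypoxia-inducible factors, occurred in none of the 5, against 16.6%. It was found once in the window of the second Vegfa start. That window (chr17:46025164-46025413) lies inside the Vegfa gene, so the match may be transcribed sequence and not a regulatory site. GATAA occurred once for Vegfa, against 22.6% of all windows.

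Tumors had between about 10035000 and 21947000 counts on genes, with a median of 16541000, and CAF libraries had about 9267800 to 22842000 reads behind their values, as read from the smallest steps between them. Levels are given as RPKM, reads scaled to transcript length and to library size, which allows genes of different length to be compared. Tumors and CAFs were scaled separately, so no test was run across the 2 tables. Markers of the labelled cells were detected, which does not show how pure the sorted cells were. The summed level of 5 melanocyte genes was 20899 to 26131 CPM (counts scaled to library size only) in B16 tumors and at most 30.0 CPM in the others, and in CAFs Fap was at 1.89 to 11.4 RPKM and Ptprc, which encodes CD45, at 0.007 to 0.947 RPKM. Fap was lowest in Pan02 CAFs, at 3.28 and 1.89 RPKM. Whether the sort raised fibroblast genes above their level in whole tumors was not tested. One library stood apart. The second MC38 CAF library had the fewest reads, about 9267800, of which 67.2% fell on genes against 81.0 to 88.1% in the other 7, and its 8 fibroblast genes summed to 1492 RPKM against 6468 in the first. Keratin transcripts were also present in CAF libraries. Krt8, a keratin of simple epithelium and of carcinoma cells, was at 492 and 495 RPKM in EO771 CAFs, 385 and 545 in Pan02, 84.2 and 90.5 in LL2, and 0.274 and 0.241 in MC38. What share of these values comes from cancer cells in the sort was not tested. In bulk RNA of this kind, fewer endothelial cells and less RNA of a gene per endothelial cell cannot be told apart.

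In tumors, 9 of the 10 genes differed among the 5 models, the exception being Tie1, but 91.1% of all 15732 tested genes did so too (edgeR quasi-likelihood F test, adjusted p under 0.05). Over the 10 pairs of models, 27 of 100 comparisons of these genes were called, where called means an adjusted p under 0.05 together with a difference of 1 or more on the log2 scale, against 29.6% over all genes. Vegfc was called in 7 of 10 pairs, Cdh5 in 5, Flt1 in 4, Angpt2 in 3, Kdr, Tek and Vegfa in 2 each, Pecam1 and Plvap in 1 each and Tie1 in 0. All 10 genes differed among the models once B16 2 was left out. Between neighbours in the order of models, only 4 of 40 steps had an adjusted p under 0.05, so for most genes the order is not resolved beyond the spread between tumors.

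Of the genes that hold the vessel wall together, Cdh5, the cadherin of endothelial junctions (chr8:104101625-104144502, mm10), was highest in EO771 and MC38 tumors. It was at 26.5, 30.0 and 29.5 RPKM in EO771 tumors and 18.6, 27.9 and 34.8 in MC38. Pan02 tumors had 15.7, 13.9 and 12.4 RPKM, LL2 18.6, 6.80 and 8.05, and B16 7.84, 14.6 and 8.75. EO771 tumors lay above all Pan02, LL2 and B16 tumors, whereas the lowest MC38 tumor and the highest LL2 tumor were equal to within 0.1 RPKM. EO771 stood above B16 by 1.46, above LL2 by 1.36 and above Pan02 by 1.03 on the log2 scale, with edgeR's adjusted p between 0.0026 and 0.019, and it did not differ detectably from MC38 (log2 difference 0.08, adjusted p = 0.86). Against the mean of the other 4 models, Cdh5 was 0.98 higher in EO771 (SE 0.25, adjusted p = 0.0050) and 0.84 lower in B16 (−0.84, SE 0.29, adjusted p = 0.020), both short of 1. It reached 1 in EO771 without B16 2, LL2 1, Pan02 1, EO771 1 or MC38 3, at up to 1.13, and −1.17 in B16 without B16 2.

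Pecam1, which encodes the adhesion molecule CD31 (chr11:106654213-106715281), varied in smaller steps. Its levels were 22.3, 26.5 and 25.8 RPKM in EO771, 18.7, 21.8 and 24.7 in Pan02, 16.4, 15.6 and 29.0 in MC38, 19.8, 10.8 and 14.5 in LL2, and 8.02, 15.5 and 10.3 in B16. Only EO771 against B16 was called among its 10 pairs (log2 fold change −1.14 for B16 minus EO771, adjusted p = 0.0035), and the ranges of neighbouring models overlapped throughout. Plvap, the diaphragm protein (chr8:71497753-71511769), was the most abundant of the 3 and was highest in Pan02, at 85.3, 103 and 90.5 RPKM, where the other 12 tumors lay between 23.7 and 88.4. It was 0.82 above the mean of the other models in Pan02 (SE 0.26, adjusted p = 0.015), short of the threshold, and 1.21 below Pan02 in LL2 (log2 −1.21, adjusted p = 0.012), its only called pair.

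The 2 receptors of VEGF-A parted in Pan02. Flt1 (chr5:147562196-147725988), the high-affinity receptor and decoy, was at 21.8, 16.9 and 18.5 RPKM in Pan02 tumors. The other 12 tumors lay between 2.53 and 6.78 RPKM, at 5.70, 6.78 and 6.25 in EO771, 4.61, 3.66 and 5.09 in LL2, 3.07, 2.80 and 4.62 in MC38, and 2.91, 4.21 and 2.53 in B16. No tumor of another model came near the lowest Pan02 tumor, and the log2 fold change against the mean of the other models was 2.18 (SE 0.15, adjusted p = 5.7e-08). It remained between 2.05 and 2.26 when any 1 of the 15 tumors was left out. Flt1 was lowest in B16, 1.03 below the mean of the others (log2 −1.03, SE 0.18, adjusted p = 0.00026). That call sits at the threshold and was lost on leaving out any of 6 single tumors, B16 1 or 3, LL2 1 or 3, Pan02 1 or MC38 3, where the value nearest 0 was −0.87, without B16 3.

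Kdr (chr5:75933270-75978428), the main signalling receptor, did not pass the test in Pan02. Its values were 3.93, 6.36 and 3.91 RPKM in B16 and 3.41, 3.92 and 6.08 in MC38. They were 3.01, 3.42 and 3.92 in EO771, 2.70, 3.55 and 2.19 in Pan02, and 2.76, 1.47 and 1.65 in LL2. B16 and MC38 stood above LL2 by 1.28 and 1.19 on the log2 scale (adjusted p = 0.0024 and 0.0053), its 2 called pairs, and in Pan02 Kdr lay 0.30 below the mean of the other models (log2 −0.30, SE 0.24, adjusted p = 0.29). Per kilobase, Flt1 was thus above Kdr in every Pan02, EO771 and LL2 tumor, and below Kdr in every B16 and MC38 tumor.

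**Figure D1:**
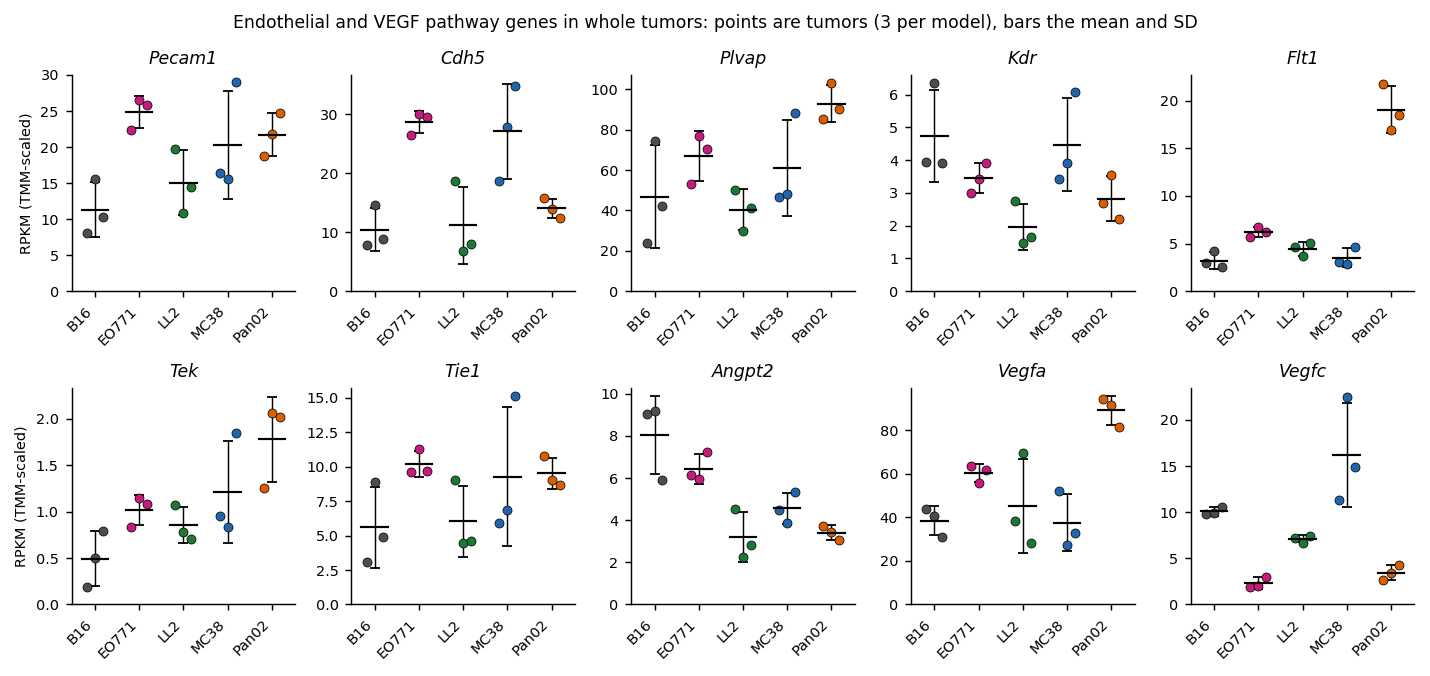
Levels of the 10 genes in whole tumors, in RPKM on linear axes starting at 0, with 1 point per tumor, 3 tumors per model, the mean as a horizontal bar and the SD as a whisker. Pan02 tumors stand apart from all others for Flt1 (16.9 to 21.8 against at most 6.78 RPKM) and Vegfa (81.5 to 94.3 against at most 69.6 RPKM), and MC38 tumors for Vegfc (11.4 to 22.4 against at most 10.6 RPKM).

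Vegfa, the ligand of both receptors (chr17:46016994-46032377), was also highest in Pan02. Pan02 tumors had 94.3, 91.6 and 81.5 RPKM. EO771 tumors had 63.4, 55.8 and 61.8, LL2 38.5, 69.6 and 28.0, B16 43.6, 40.6 and 30.9, and MC38 52.3, 27.4 and 32.9. The Pan02 tumors did not overlap with the rest, and their log2 fold change was 1.00 (SE 0.21, adjusted p = 0.0011), at the threshold itself, and leaving out any of 8 single tumors (B16 3, LL2 1 or 3, Pan02 1 or 2, EO771 2, MC38 2 or 3) brought it to between 0.93 and 0.99. Total-count scaling gave 0.88. In pairs, Pan02 exceeded B16 and MC38 by 1.22 and 1.25 (adjusted p = 0.0024 for both), whereas its difference from EO771, 0.56, had an adjusted p of 0.10.

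Vegfc, the lymphangiogenic ligand (chr8:54077532-54186454), was called in more pairs of models than any other of the 10. MC38 tumors had 11.4, 22.4 and 14.8 RPKM, B16 9.76, 9.90 and 10.6, and LL2 7.22, 6.69 and 7.42. Pan02 tumors had 2.64, 3.46 and 4.26 RPKM and EO771 1.90, 1.95 and 3.03. MC38 lay above all other tumors, LL2 and B16 were narrow and did not overlap, and every EO771 and Pan02 tumor lay below every tumor of the other 3 models. Vegfc was called higher in MC38 (log2 fold change 1.73, SE 0.18, adjusted p = 3.7e-06) and lower in EO771 (−1.80, SE 0.23, adjusted p = 2.1e-05) and Pan02 (−1.06, SE 0.21, adjusted p = 0.00078). The Pan02 call was lost without Pan02 1, EO771 3 or MC38 2, where the value nearest 0 was −0.91, without Pan02 1, while those of MC38 and EO771 passed without any single tumor. Over the 15 tumors, Vegfc had a Pearson r of −0.75 with Vegfa and −0.67 with Flt1 on log2 CPM, and Vegfa and Flt1 one of 0.77, all resting on tumors that share 5 models.

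The angiopoietin genes were less separated. Tek (chr4:94739289-94874976), the receptor, was the least abundant of the 10, at 0.189, 0.505 and 0.790 RPKM in B16 and 1.25, 2.06 and 2.02 in Pan02, with the 9 other tumors between 0.710 and 1.85, overlapping with both. Its lowest value, in B16 1, rested on 8.5 counts. Tek was called lower in B16 (log2 fold change −1.20, SE 0.36, adjusted p = 0.011) and higher in Pan02 (1.05, SE 0.30, adjusted p = 0.0088). The first fell to −0.84 (adjusted p = 0.050) without B16 1, and the second fell short of 1 without B16 1, Pan02 2, Pan02 3 or MC38 2, the lowest value being 0.925 without Pan02 2. Total-count scaling also ended the Pan02 call, at 0.939 (adjusted p = 0.017). Tie1 (chr4:118471191-118489849), its partner receptor, ranged from 3.08 RPKM in a B16 tumor to 15.1 in an MC38 tumor, its EO771 tumors lay above all B16 and LL2 tumors, and no difference among the models was detectable (F test adjusted p = 0.16).

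Angpt2 (chr8:18690263-18741562), the ligand of remodelling vessels, was highest in B16, at 9.02, 9.18 and 5.89 RPKM. It was at 6.13, 5.93 and 7.22 RPKM in EO771, 4.50, 3.86 and 5.32 in MC38, 3.73, 3.46 and 3.04 in Pan02, and 4.54, 2.26 and 2.82 in LL2. B16 exceeded LL2 by 1.32 and Pan02 by 1.23 on the log2 scale (adjusted p = 0.00043 and 0.00059), and EO771 exceeded LL2 by 1.01 (adjusted p = 0.0046). Against the mean of the other models it was 0.92 higher in B16 (SE 0.18, adjusted p = 0.00052), under the threshold of 1, which it passed without B16 3 or LL2 1, at up to 1.11.

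Counted by model, 0 of the 10 genes were called higher and 2 lower in B16, where 13.1% and 19.6% of all tested genes were. In EO771 0 were higher and 1 lower (background 9.71% and 13.7%), in MC38 1 was higher and 0 lower (background 11.2% and 8.23%), and in Pan02 3 were higher and 1 lower (background 18.8% and 7.92%). In LL2 edgeR called 0 in either direction (background 8.51% higher and 8.3% lower) and DESeq2 also 0, while 2 genes had an adjusted p under 0.05 and 5 an unadjusted p under 0.05, all 5 with a lower level in LL2. Single tumors decided several of these counts. Without B16 2, 5 genes were called lower in B16, namely Pecam1 (−1.13), Cdh5 (−1.17), Tie1 (−1.10), Flt1 (−1.27) and Tek (−1.19), and without B16 1 none was. Without LL2 1, 3 were called lower in LL2, namely Cdh5 (−1.31), Kdr (−1.28) and Angpt2 (−1.07), and without Pan02 3 only Kdr was. Pan02 kept 1 call without MC38 2, and 2 without Pan02 1 or Pan02 2, and MC38 had 2 without MC38 1 or MC38 3. Every tumor of a model lay above all others for 2 genes in Pan02 (Flt1 and Vegfa, background 8.91%) and 1 in MC38 (Vegfc, background 7.68%). The medians of the 10 log2 fold changes were −0.56 in B16, −0.46 in LL2, 0.26 in EO771, 0.26 in MC38 and 0.34 in Pan02, beside medians over all tested genes from −0.045 to 0.053. Markers of other cells differed between the models as well. In Pan02 tumors all 8 fibroblast genes were called higher, with a summed level of 43031 to 48794 CPM against 375 to 13270 in the others, and so were all 5 epithelial genes. In B16 tumors all 8 fibroblast genes and 8 of 10 leukocyte genes were called lower, leukocyte genes summing to 758 to 1680 CPM there and 1439 to 8279 elsewhere. In Pan02 tumors 3 of the 10 leukocyte genes were called higher, Cd74 (2.10) and the myeloid genes Csf1r (1.60) and Lyz2 (1.56), with leukocyte sums of 2689, 7443 and 8279 CPM in its 3 tumors. In LL2, 1 leukocyte gene was higher, Itgam (1.12). All 4 platelet genes tested were lower in B16, 2 were higher in LL2, and 1 was higher in Pan02, Itga2b (2.48). Their part in the results for Flt1, Vegfa, Tek, Pecam1 and Vegfc was not tested.

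A ratio within a tumor does not depend on library scaling, so 7 endothelial genes were also set against Cdh5 of the same tumor, by an exact permutation test of each model against the other 12 tumors. Of 35 tests, 4 passed an adjusted p under 0.05, all at the smallest p that 3 of 15 tumors allow (0.0022). What share of all genes would pass when set against Cdh5 in this way was not computed. Relative to Cdh5, Kdr was at 0.502, 0.435 and 0.447 in B16 tumors and between 0.114 and 0.256 in all others. Angpt2 was at 1.15, 0.628 and 0.673 in B16 and between 0.139 and 0.350 elsewhere. The B16 tumors did not overlap with the rest for either gene, with log2 differences of 1.48 for Kdr and 1.77 for Angpt2 (two-sided exact p = 0.0022, adjusted p = 0.019 for both). A low Cdh5 raises these ratios as a high Kdr or Angpt2 does. By themselves in B16, Cdh5 was at a log2 fold change of −0.84, Kdr at 0.64 and Angpt2 at 0.92, none of them called. Flt1 was at 1.38, 1.22 and 1.48 times Cdh5 in Pan02 and between 0.1004 and 0.632 elsewhere, a log2 difference of 2.44 (exact p = 0.0022, adjusted p = 0.019). Plvap was at 5.42, 7.45 and 7.27 times Cdh5 in Pan02, above all other tumors, where the highest was 5.10, a log2 difference of 1.13 (exact p = 0.0022, adjusted p = 0.019). Each of these calls ended when 1 of the model's own 3 tumors was left out, since fewer tumors raise the smallest p, and with Tie1 in place of Cdh5 the call for Plvap was lost (adjusted p = 0.096).

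**Figure D2:**
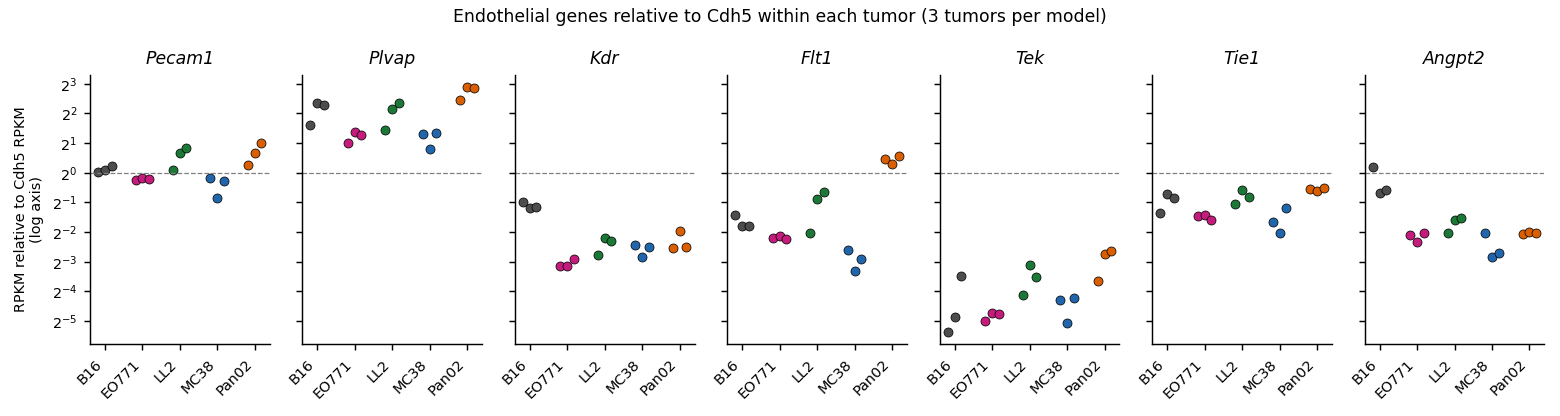
RPKM of 7 endothelial genes divided by the RPKM of Cdh5 in the same tumor, on a log axis, with 1 point per tumor and the dashed line at 1. Kdr and Angpt2 in B16 (0.435 to 0.502 and 0.628 to 1.15), and Flt1 and Plvap in Pan02 (1.22 to 1.48 and 5.42 to 7.45), lie above every other tumor.

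Other genes of these pathways also differed. Of the VEGF ligands and receptors, all 10 on the list differed among the models, the 6 that are not among the genes above included, beside 91.1% of all tested genes. Vegfb, a ligand of Flt1, was 1.35 higher in B16 on the log2 scale (153 CPM ± 10.4, SD, n = 3) and 1.15 lower in EO771 (−1.15, 38.1 CPM ± 2.17). Nrp1, a VEGF co-receptor, was 2.82 higher in Pan02 (497 CPM ± 182 against a mean of 74.2 in the other models). Vegfd, like Vegfc a ligand of Flt4, was 3.49 higher in LL2 (38.2 CPM ± 7.63). Flt4, the receptor of lymphatic vessels, was 1.17 higher in MC38 (18.95 CPM ± 12.4) and 1.035 higher in B16 (17.5 CPM ± 6.79). Flt4 was 1.73 lower in LL2 (−1.73, 3.79 CPM ± 1.15). Of the angiopoietin list, 5 of 7 differed, beside the same 91.1%. Angpt1, the agonist of Tek, was 3.07 higher in MC38 (18.8 CPM ± 3.365) and 2.95 lower in EO771 (−2.95, 0.634 CPM ± 0.281), and Angpt4, a further Tek ligand, was 5.09 higher in Pan02 (20.6 CPM ± 10.4 against 0.816). All these passed edgeR's test.

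Of 29 genes of endothelial identity, 19 differed among the models, beside 91.1% of all tested genes. In B16, 5 were lower and 2 higher (background 19.6% and 13.1%), with Cd34 at a log2 fold change of −1.93 and Eng, a TGF-β co-receptor, at 1.86. In EO771, 5 were higher (background 9.71%), Sox7, a transcription factor, by 2.71, and the tight junction gene Cldn5 by 1.63, and 2 were lower (background 13.7%). In MC38, 2 were higher and 1 lower (background 11.2% and 8.23%), with Cd34 at 2.65, Arhgef15 at 1.27 and Eng at −1.07. In LL2, 0 were higher and 2 lower (background 8.51% and 8.3%), Ecscr and Emcn, both endothelial surface proteins (−1.11 and −1.01). In Pan02, 3 were higher and 1 lower (background 18.8% and 7.92%), with Vwf, the endothelial clotting factor, at 1.47 and Egfl7 at −1.02. Of 15 genes listed for tip cells and Notch, 6 were higher and 0 lower in Pan02 (background 18.8% and 7.92%), led by Efnb2 (log2 3.69, 181 CPM ± 45.5), Jag2 (3.26) and Jag1 (1.84). That list also holds Nr2f2, a gene of vein identity (1.775 in Pan02), so its counts do not describe a single cell state. In B16, 5 of these 15 were lower and 2 higher (background 19.6% and 13.1%), with Unc5b, a netrin receptor, at −3.53 and Efnb2 at −1.41. The 2 higher ones were Hey2 (2.69) and Esm1 (1.86), a tip cell gene at 18.9 CPM ± 9.59. Of 11 pericyte genes, the cells that wrap small vessels, 4 were higher and 0 lower in Pan02 (background 18.8% and 7.92%), among them Notch3 (4.01) and Pdgfrb (2.30), the latter also a fibroblast gene. Of 6 lymphatic genes tested, 4 were higher in MC38 (background 11.2%). Among them were Mmrn1 (5.91, 5.81 CPM ± 5.23) and Reln (2.90, 2.59 CPM ± 2.28), low values that varied widely between tumors. Prox1, also called there (1.57), had a mean of 2.38 CPM ± 2.19, beside 2.36 in the other models. In B16, 2 were higher, Prox1 (3.79) and Flt4 (1.035), and 1 was lower, Lyve1 (−2.32) (background 13.1% and 19.6%). In EO771, 2 were lower (background 13.7%), Prox1 (−3.40) and Lyve1 (−2.40). LL2 had 1 higher, Lyve1 (2.11, 36.3 CPM ± 16.6), and 1 lower, Flt4 (background 8.51% and 8.3%). Pan02 had 1 higher, Lyve1 (2.41, 43.1 CPM ± 44.3), and 0 lower (background 18.8% and 7.92%). The mean of Lyve1 in MC38 was 12.7 CPM.

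Of 12 listed hypoxia targets, all 12 differed among the tumor models, beside 91.1% of all tested genes. In Pan02, 2 were higher and 1 lower (background 18.8% and 7.92%), where Ndrg1 and Egln3 were 2.08 and 1.81 higher and Pgk1 was 1.30 lower (−1.30). Their summed level was 2654 to 4782 CPM in Pan02 and 2756 to 5456 CPM in the other models, and these ranges overlapped. The part of hypoxia in the Vegfa levels was not tested.

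In CAFs, 9 of the 10 genes differed among the 4 models, all but Flt1 (adjusted p = 0.066), against 80.4% of 13598 tested genes (limma F test on log2 of RPKM + 1). Of 60 pairwise comparisons 26 were called, against 21.9% of all genes. Endothelial transcripts were present in all 8 libraries, and their summed level was highest in EO771 and lowest in Pan02, with LL2 and MC38 overlapping between them. The summed level of 29 endothelial identity genes was 318 and 330 RPKM in EO771 CAFs, 248.6 and 283 in LL2, 288 and 196 in MC38, and 68.7 and 45.1 in Pan02. The share of endothelial cells in the sorted cells is not known, and its part in the values below was not tested.

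Cdh5 was at 13.4 and 14.3 RPKM in EO771 CAFs, 8.49 and 10.6 in LL2, 6.33 and 5.71 in MC38, and 1.98 and 1.15 in Pan02. All 4 models were separate, EO771 lying 1.38 above the mean of the others on the scale of log2 of RPKM + 1 (SE 0.15, limma adjusted p = 0.00041) and Pan02 2.02 below it (−2.02, SE 0.15, adjusted p = 4.9e-05). Neighbouring MC38 and Pan02 differed by 1.47 (adjusted p = 0.00048), while EO771 and LL2 differed by 0.50 (adjusted p = 0.074).

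Pecam1 was at 9.83 and 9.73 RPKM in EO771, 9.12 and 12.002 in LL2, 2.83 and 2.33 in MC38, and 2.23 and 1.64 in Pan02. It formed 2 levels, with EO771 and LL2 1.59 and 1.68 above MC38 (adjusted p = 0.00031 and 0.00034). It was called higher in both EO771 (1.13) and LL2 (1.25) and lower in Pan02 (−1.38, SE 0.15, adjusted p = 0.00023), whereas MC38 missed the threshold at −0.997 with an adjusted p of 0.00087. Plvap was at 32.0 and 30.9 RPKM in EO771, 19.04 and 25.3 in LL2, 15.3 and 8.11 in MC38, and 8.74 and 6.96 in Pan02, called higher in EO771 (1.27, SE 0.22, adjusted p = 0.0030) and lower in Pan02 (−1.24, SE 0.22, adjusted p = 0.0029).

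**Figure D3:**
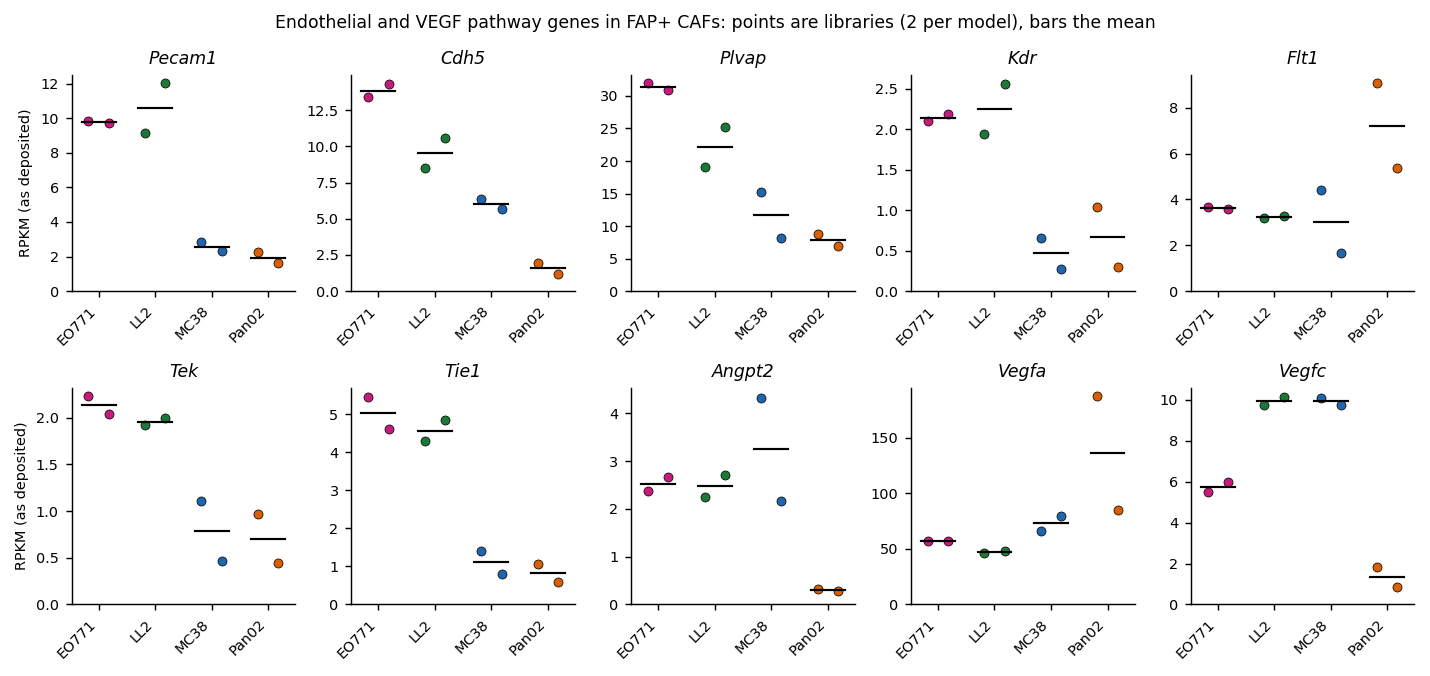
Levels of the 10 genes in FAP+ CAF libraries, in deposited RPKM on linear axes starting at 0, with 1 point per library, 2 libraries per model and the mean as a bar. Cdh5, Pecam1, Plvap and Tie1 are high in EO771 and LL2 and low in Pan02, where Cdh5 is at 1.98 and 1.15 RPKM, while Flt1 (9.08 and 5.36 RPKM) and Vegfa (188 and 84.8 RPKM) are highest in Pan02.

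Of the receptors, Tie1 followed Pecam1, at 5.45 and 4.60 RPKM in EO771, 4.28 and 4.86 in LL2, 1.41 and 0.798 in MC38, and 1.07 and 0.595 in Pan02. It was higher in EO771 (1.12, SE 0.17, adjusted p = 0.0014) and lower in Pan02 (−1.18, SE 0.17, adjusted p = 0.00095), a call that ended at −0.99 without Pan02 2. Kdr was at 2.10 and 2.18 RPKM in EO771 and 1.94 and 2.56 in LL2, and it was at 0.656 and 0.279 in MC38 and 1.04 and 0.299 in Pan02, the lower pairs resting on as few as 14 reads. EO771 and LL2 exceeded MC38 by 1.11 and 1.15 (adjusted p = 0.0061 and 0.0063), and MC38 and Pan02 overlapped. Tek showed the same grouping, at 2.23 and 2.04 RPKM in EO771, 1.92 and 1.99 in LL2, 1.104 and 0.465 in MC38, and 0.963 and 0.439 in Pan02, with differences under 1 in all 6 pairs. At levels this low the added 1 shrinks the differences, so the threshold of 1 was harder to reach. In Pan02, Tek and Kdr were at 0.43 and 0.41 times the mean RPKM of the other libraries, beside differences of −0.59 for both.

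Flt1 did not follow the other receptors. It was at 9.08 and 5.36 RPKM in Pan02 CAFs, 3.69 and 3.59 in EO771, 3.18 and 3.30 in LL2, and 4.40 and 1.68 in MC38. Both Pan02 libraries lay above the other 6, as was so for 20% of all tested genes, and the difference from the mean of the others was 0.93 (SE 0.28, adjusted p = 0.024), short of the threshold of 1. MC38 against Pan02 was its only called pair (−1.08, adjusted p = 0.027). The Pan02 value was 1.26 without Pan02 2, 1.096 without MC38 1, 1.11 with a pseudocount of 0.1, and 1.145 in an edgeR fit to the reads behind the RPKM (adjusted p = 0.016). Within a library, Flt1 was 4.60 and 4.65 times Cdh5 in Pan02 CAFs and between 0.251 and 0.694 times in the other 6, a description given with no test.

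Among the ligands, Vegfa was at 188 and 84.8 RPKM in Pan02 CAFs, 66.4 and 79.6 in MC38, 56.9 and 57.2 in EO771, and 46.3 and 48.1 in LL2. Pan02 lay above all other libraries but its own 2 libraries differed widely, and the difference of 1.11 (SE 0.26, adjusted p = 0.010) fell to 0.54 without the first of them (adjusted p = 0.034). Vegfc was at 10.1 and 9.77 RPKM in MC38, 9.75 and 10.1 in LL2, 5.49 and 5.97 in EO771, and 1.81 and 0.851 in Pan02, where it differed from the mean of the others by −2.03 (SE 0.16, adjusted p = 6.3e-05). Vegfc was low in Pan02 in both kinds of sample, but EO771, lowest in tumors, took an intermediate place in CAFs. Angpt2 was at 0.313 and 0.276 RPKM in Pan02 CAFs, from 18 and 17.5 reads, and at 2.17 to 4.33 in the other 6 libraries, a difference of −1.51 (SE 0.19, adjusted p = 0.00061).

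In all, 7 of the 10 genes were called in Pan02 CAFs, 6 of them lower and Vegfa higher, where 8.41% and 9.73% of all tested genes were. In EO771 4 were higher and 0 lower (background 8.05% and 7.06%), and in LL2 1 was higher and 0 lower (background 3.89% and 5.13%). In MC38 limma called 0 (background 10.9% higher and 9.87% lower), with 7 at an adjusted p under 0.05 and 7 at an unadjusted p under 0.05, and edgeR on recovered reads called 5. Leaving out the second MC38 library, which stood apart, gave 7 called in Pan02, 4 in EO771, 1 in LL2 and 2 in MC38 (Angpt2 at 1.09 and Vegfc at 1.01). Without the first MC38 library 4 were called lower in MC38, namely Flt1 (−1.01), Pecam1 (−1.098), Plvap (−1.04) and Tie1 (−1.13). Leaving out EO771 2, Pan02 1, Pan02 2 or LL2 1 gave 1 call in MC38, Vegfc or Pecam1. In LL2, 3 were called without Pan02 1 or LL2 1 and 2 without EO771 1, EO771 2 or MC38 1, Tie1 and Vegfc being added at 1.004 to 1.088. Both Pan02 libraries lay below the other 6 for Pecam1, Cdh5, Angpt2 and Vegfc (background 15.4%), both EO771 libraries above for Cdh5, Plvap and Tek (background 17.3%), and both LL2 libraries below for Vegfa (background 7.79%). The medians of the 10 differences were −1.21 in Pan02, −0.51 in MC38, 0.65 in LL2 and 0.64 in EO771, with medians over all tested genes from −0.031 to 0.

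**Figure D4:**
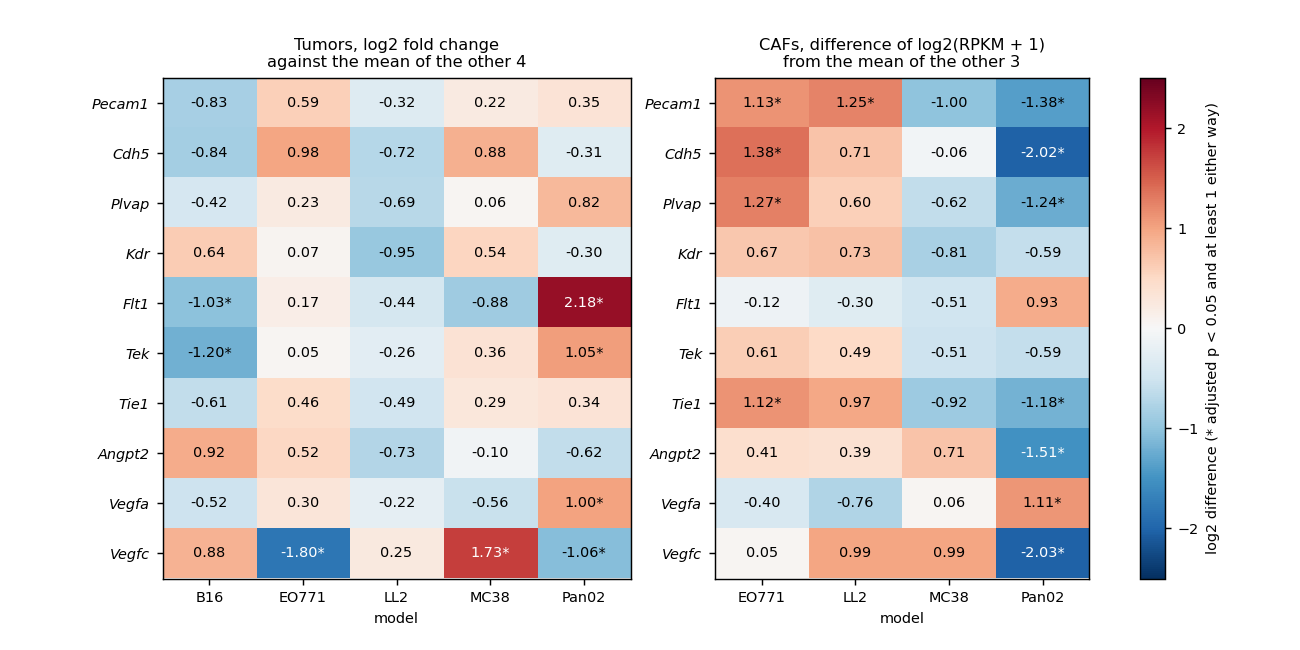
Log2 differences of the 10 genes in each model from the mean of the other models, for tumors (edgeR log2 fold change, 5 models) and CAFs (limma, difference of log2 of RPKM + 1, 4 models), as colours and numbers, with an asterisk where the adjusted p was under 0.05 and the difference at least 1. Pan02 has 4 of the 8 calls in tumors and 7 of the 12 in CAFs, with Flt1 at 2.18 in tumors and Cdh5 at −2.02 and Vegfc at −2.03 in CAFs. Of all tested genes, 18.8% were called higher and 7.92% lower in Pan02 tumors, and 9.73% and 8.41% in Pan02 CAFs.

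Other vessel genes differed between CAF libraries in both directions. Of the 20 tested endothelial identity genes that are not among the 10, 11 were called lower and 0 higher in Pan02 CAFs (background 8.41% and 9.73%), led by Cd34 (−2.79), Egfl7 (−2.74), Ramp2, part of a receptor for adrenomedullin (−2.64), and Eng (−2.29), and 6 were higher in EO771 (background 8.05%), led by Sox7 (1.96) and Egfl7 (1.72). Of 11 pericyte genes, 8 were lower and 2 higher in Pan02 (background 8.41% and 9.73%), the lower ones including Ndufa4l2 (−2.74), Rgs5 (−2.67) and Kcnj8 (−2.42). In MC38, 5 were higher and 1 lower (background 10.9% and 9.87%), the latter Pdgfb, a ligand of Pdgfrb (−1.77). The 11 pericyte genes summed to 498 RPKM in the first MC38 library but 150 in the second, against 104 to 170 in the other models. Of 8 fibroblast genes, 3 were lower in Pan02 as well, Thy1 (−2.54), Col3a1 (−1.68) and Fap (−1.31), and fibroblast genes summed to 3811 and 2336 RPKM there and to 1492 to 9690 in the others. Nrp1 was 3.31 higher in Pan02 CAFs (101.1 RPKM ± 1.69, SD, n = 2), and of 6 tested angiopoietin pathway genes 2 were higher there, Angpt1 (2.33) and Angpt4 (2.11), and 2 lower, Angpt2 and Tie1. Of 14 tested genes from the list for tip cells and Notch, 6 were higher and 1 lower in Pan02 CAFs (background 9.73% and 8.41%). Efnb2 was at 3.61 (56.6 RPKM ± 4.79), Nr2f2, the vein gene of that list, at 1.98, Jag2 at 1.75 and Hey1 at 1.55.

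Other cell types also differed between the CAF libraries. All 8 tested leukocyte genes were called higher in EO771 (background 8.05%), where they summed to 143 and 182 RPKM against 8.32 to 16.7 in LL2 and MC38. Pan02 CAFs reached 571 and 268 RPKM, mainly by Cd74 (401 RPKM ± 219), with Ptprc at 0.09 and 0.092. Lyz2, a myeloid lysozyme, was 3.68 higher in EO771. Of 5 epithelial genes, 4 were higher in Pan02 CAFs (background 9.73%). Their sum was 832 and 1121 RPKM there, against 494 and 500 in EO771, 200 and 209 in LL2, and 3.73 and 1.72 in MC38. The part of leukocytes in the Pecam1 and Tek levels of EO771 CAFs, and of epithelial cells in the Vegfa and Flt1 levels of Pan02 CAFs, was not tested. Only 2 of 7 lymphatic genes passed the filter in CAFs, of which Pdpn, also a fibroblast gene, was 1.81 higher in EO771 and 2.02 lower in Pan02 (−2.02). Of 3 platelet genes tested, Pf4 was 2.91 higher in EO771 (background 8.05%) and Gp1bb 1.08 lower in Pan02 (−1.08, background 8.41%). Of 12 hypoxia targets, 2 were higher and 2 lower in Pan02 CAFs (background 9.73% and 8.41%), Ndrg1 by 1.90 and Slc2a1 by −1.61 among them. Melanocyte genes summed to at most 1.72 RPKM and none passed the filter.

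Set side by side on a common RPKM scale based on reads on genes, still with no test because the tables were made separately, CAFs lay below all 3 tumors of their model in 22 of 40 combinations of gene and model, above them in 7 and overlapping with them in 11. Over the 13208 genes tested in both tables, 35.7% of such combinations lay below and 28.6% above. For the 8 genes other than Vegfa and Vegfc, the median ratio of CAFs to tumors was 0.128 in Pan02, 0.256 in MC38, 0.557 in EO771 and 0.919 in LL2. In Pan02 all 8 were below every tumor (20.4% of all genes tested in both tables were), from 0.108 (Plvap) to 0.503 (Tek). In LL2 6 of 8 overlapped with the tumors (38.7% of all genes did), Cdh5 at a ratio of 1.02 and Pecam1 at 0.843.

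Some genes departed from their neighbours. Tek was above the tumors in EO771 (ratio 2.40) and LL2 (2.76), where Tie1 was at 0.563 and 0.909. For Tek, Pecam1 and Vegfa the transcript used differed between the tables. Flt1 in MC38 was at 1.04 while Kdr was at 0.127. Of the VEGF ligands, Vegfa was above the tumors in MC38 (2.47), Pan02 (1.95) and EO771 (1.08) and overlapped with them in LL2 (1.245). Vegfa was thus the only gene of the 10 whose mean was not below that of tumors in any model. Vegfc was above the tumors in EO771 (2.86) and LL2 (1.68) and below them in Pan02 (0.492). In 6 of 60 combinations of gene and pair of models, the models differed in opposite directions in tumors and CAFs with no overlap in either, as did 8.01% of such combinations over the genes tested in both tables.

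**Figure D5:**
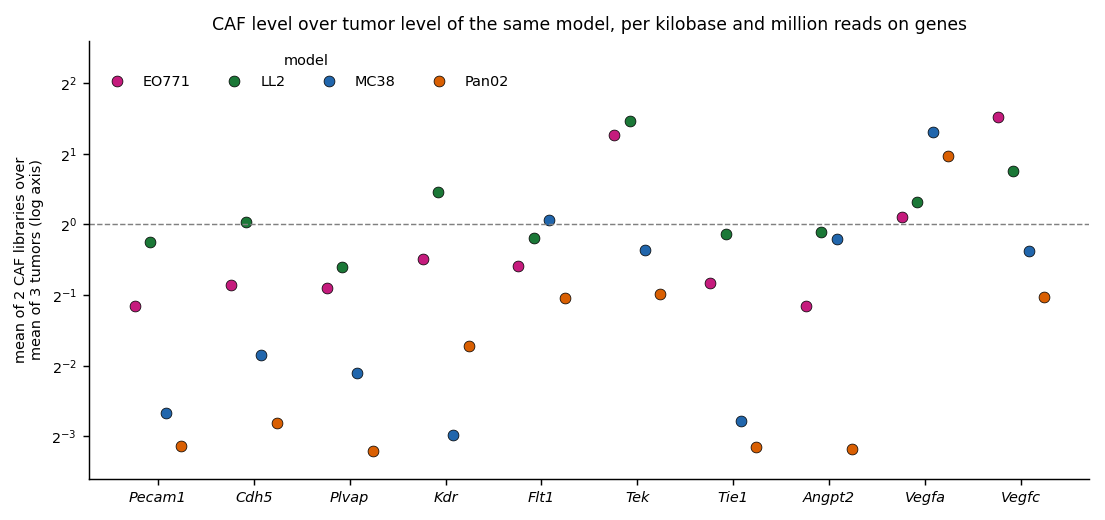
Mean of the 2 CAF libraries over the mean of the 3 tumors of the same model for each gene, in RPKM based on reads on genes, with a log axis and a dashed line at 1. LL2 points sit near 1 for most genes, Pan02 points are lowest for Pecam1, Cdh5, Plvap, Tie1 and Angpt2 (0.108 to 0.143), and Vegfa lies at or above 1 in all 4 models.

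The genes whose pattern over the 15 tumors was most like that of Cdh5, among 14318 genes with a mean of at least 1 CPM, were Dlx3 (Pearson r = 0.89), Alkbh4 (0.87), Nid2, a basement membrane gene (0.87), Cldn9 (0.86) and Plcd1 (0.86). They were closer to it than Tie1 (0.80) and Pecam1 (0.78), while Kdr reached 0.51 and Flt1 0.08. For Vegfa the closest were Nr1d2 (0.91), Nipal1 (0.88), Stra6 (0.85), Pi15 (0.85) and Rnf19a (0.85), ahead of Flt1 (0.77). The points share 5 models of 3 tumors, and these values are a description.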

How the data were processed

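RNA of 15 tumors and 8 CAF libraries was analysed, and 5 further value columns were not used here. Per the labels and the study's methods, the authors aligned poly(A) reads to mm10 with STAR 2.5.0c and counted them over RefSeq transcripts with HOMER, without strand. For tumors they deposited expected counts in steps of 0.5, not normalized, and for CAFs RPKM. Both tables hold 40458 transcripts, 2 without a gene name. Each symbol was given its transcript of largest mean; for Pecam1, Tek and Vegfa this differed between the tables. No exon base of the 10 genes was shared with another gene.

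Tumor counts, rounded to whole numbers, were tested with edgeR 4.0.16 (TMM, filterByExpr, quasi-likelihood) and levels are TMM-scaled CPM, divided by transcript length for RPKM. For CAFs, limma 3.58.1 with a trend was fitted to log2 of RPKM plus a pseudocount of 1, keeping genes that reached 1 RPKM in 2 or more libraries. Reads behind RPKM were recovered from the steps (100% whole within 0.2). P-values were adjusted over all tested genes by Benjamini-Hochberg. Ratios to Cdh5 used 2-sided exact permutation tests on the log2 ratio of unscaled counts, with 0.5 added to each count. The ratios printed for single tumors are of RPKM. All 10 genes are named, and from each list up to 4 called genes of largest change with at least 1 CPM or RPKM in the higher group. Krt8, Ptprc and Fap levels per CAF library, and the leave-one-out genes named, were chosen after the data were seen. The genes, lists and tests were chosen with earlier results of these data known. Alternatives were DESeq2 1.42.0, total-count scaling, no low-value filter, another pseudocount, median of ratios scaling, adjusted p alone, the longest transcript, Tie1 as denominator, the replicate number as a block and leaving out each library. Scripts were tested on simulated data. R 4.3.3, Python 3.11.15 and matplotlib 3.10.9 were used.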

Additional observations from a re-analysis of the deposited data

Results flagged for a closer look

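In 6 of 60 combinations of gene and pair of models, the difference went in opposite directions in tumors and in CAFs, with no overlap between the libraries of the 2 models in either kind of sample. Over all genes tested in both tables, 8.01% of such combinations did so. The difference between tumors and CAFs was not tested in any of them. Values are log2 differences of the first model minus the second, by edgeR in tumors and by limma on log2 of RPKM + 1 in CAFs. For Kdr, LL2 minus MC38 was −1.19 in tumors and 1.15 in CAFs, both called. For Plvap, LL2 minus Pan02 was −1.21 in tumors and 1.38 in CAFs, both called, and EO771 minus Pan02 was −0.47 in tumors (adjusted p = 0.25) and 1.88 in CAFs. For Tek, EO771 minus Pan02 was −0.80 in tumors (adjusted p = 0.11) and 0.90 in CAFs, and LL2 minus Pan02 was −1.05 in tumors (adjusted p = 0.050) and 0.82 in CAFs. For Vegfa, EO771 minus MC38 was 0.69 in tumors (adjusted p = 0.064) and −0.34 in CAFs (adjusted p = 0.39).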

How the results depend on the processing

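Limits: counts near the log2 threshold of 1 moved with single tumors, 2 or 3 libraries per model bound the precision, and Tek, Kdr and Angpt2 rested on few reads in some libraries. Under total-count scaling MC38 tumors had 2 calls (Cdh5 then passing) and Pan02 tumors 2 (Tek and Vegfa no longer passing), and Angpt2 in MC38 tumors turned to 0.05. By adjusted p alone, calls were 7 in B16, 4 in EO771, 2 in LL2 and 3 in MC38 tumors, and 5 in LL2 and 7 in MC38 CAFs. With a pseudocount of 0.1, EO771 CAFs had 6, LL2 CAFs 3, MC38 CAFs 5 and Pan02 CAFs 9, and Cdh5 in MC38 CAFs turned to 0.027. The longest transcript gave MC38 CAFs 1. An edgeR fit to recovered reads, chosen after seeing the data, gave EO771 CAFs 6, LL2 CAFs 4, MC38 CAFs 5 and Pan02 CAFs 9. Vegfa in MC38 CAFs turned to −0.009 in that fit. With Tie1 as denominator, the log2 ratio difference turned for Kdr (0.303) and Tek (0.140) in MC38, Pecam1 in EO771 (0.079) and Pan02 (−0.042), and Angpt2 (−0.288) and Plvap (−0.164) in LL2. DESeq2 and the fit without a filter on low values left each model's count of calls within 1.5 times. Leaving out 1 library at a time, calls in tumors ranged from 0 to 5 in B16, 1 to 2 in EO771 and 0 to 3 in LL2. They ranged from 1 to 2 in MC38 and 1 to 4 in Pan02 tumors. In CAFs they ranged from 1 to 3 in LL2, 0 to 4 in MC38 and 6 to 8 in Pan02, with 4 in EO771 throughout. The ratio tests passed from 2 to 6 times. The sign of small differences then turned for Tek (−0.036 to 0.181) and Kdr (−0.030 to 0.161) in EO771 tumors, Vegfa in LL2 tumors (−0.664 to 0.039), and Plvap (−0.342 to 0.221), Angpt2 (−0.258 to 0.012), Pecam1 (−0.160 to 0.380), Tek (−0.104 to 0.567) and Tie1 (−0.285 to 0.534) in MC38 tumors. It turned for Cdh5 (−0.142 to 0.013) and Vegfa (−0.133 to 0.246) in MC38 CAFs, and Vegfc (−0.048 to 0.153) and Flt1 (−0.292 to 0.045) in EO771 CAFs. It turned for the ratios of Kdr in Pan02 (−0.223 to 0.081) and LL2 (−0.241 to 0.034), Pecam1 in B16 (−0.101 to 0.066), and Angpt2 (−0.045 to 0.235) and Plvap (−0.011 to 0.451) in LL2. Replicate numbers were not used as pairs in the main tests. In tumors, 9 of 30 same-numbered pairs and 13 of 60 other pairs had a correlation of deviations over 0.1. In CAFs, 6 of 12 same-numbered pairs (median r 0.1085) and 2 of 12 others (median −0.1085) did. With 2 libraries per model, the values of these 2 kinds of CAF pair mirror each other in sign. Whether CAF libraries were paired by number is not settled. With the replicate block, tumor pairs gave 30 calls in place of 27, CAF pairs 26, and the count in each model was the same. Apart from the scalings named, the cause of these shifts was not tested.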
